A study of Mus musculus with 13 samples.

Results

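The RNA of 10 genes that encode the silencing machinery around TRIM28 and histone H3 lysine 9 (H3K9) methylation was followed in mouse embryonic stem (ES) cells. The genes were taken by name: Trim28, Setdb1, Ehmt2, Cbx1, Cbx3, Cbx5, Atrx, Daxx, Zfp57 and Zfp809. All 10 had a row among the 26797 genes listed for each replicate library and among the 49671 genes of the count table of the single libraries, and all 10 passed the filter on low values. RNA-seq was available for 3 replicates of untreated wild-type (WT) cells, which are of the AinV15 line, and for 3 replicates of untreated Dnmt1-/- cells, labelled as the D1-null strain with the C allele. It was also available for 1 library each of AinV15 cells that expressed dCas9-OGA or dCas9-OGA-D242A together with 4 guide RNAs against IAP retrotransposons, from a doxycycline-inducible cassette (1 µg/mL, 48 h). A table of counts holds these last 2 libraries beside 1 column for WT cells and 1 for Dnmt1-/- cells. These columns name only the group and are tied to no labelled sample, so each is treated here as 1 library, and whether it is separate from the replicates or pools several is not given. OGA removes O-GlcNAc sugars from proteins, and the D242A substitution inactivates it. Each genotype is represented by a single line, so the Dnmt1 genotype and the origin of the line cannot be told apart, and nothing in the labels ties the replicates to separate cultures, so p-values measure only the spread between these samples.

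TRIM28 (also called KAP1) is a scaffold protein that does not bind DNA by itself. Zinc finger proteins with a KRAB domain, such as ZFP57 at methylated imprinting control regions and ZFP809 at retroviral sequences, bring it to its targets. TRIM28 then recruits SETDB1, which trimethylates H3K9, and the HP1 proteins, which bind the methylated histone tail. EHMT2 (G9a) places mono- and dimethylation on the same residue, and ATRX with DAXX deposits the histone variant H3.3 in silent chromatin, retrotransposons included. In ES cells this system represses endogenous retroviruses, and at imprinted loci it protects DNA methylation, which DNMT1 copies at each round of replication.

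The promoters of 3 members are shown because Cbx1 and Cbx5 are paralogs whose RNA moved in opposite directions in Dnmt1-/- cells, and because Zfp57 had the largest difference between the cells with active and inactive OGA. Each sequence is the 250 bases before a transcription start in RefSeq (GRCm38.p6), read 5′ to 3′ on the strand of the gene, with every CpG, the dinucleotide that DNMT1 keeps methylated, in capitals.

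Cbx1, chr11:96788885-96789134, plus strand: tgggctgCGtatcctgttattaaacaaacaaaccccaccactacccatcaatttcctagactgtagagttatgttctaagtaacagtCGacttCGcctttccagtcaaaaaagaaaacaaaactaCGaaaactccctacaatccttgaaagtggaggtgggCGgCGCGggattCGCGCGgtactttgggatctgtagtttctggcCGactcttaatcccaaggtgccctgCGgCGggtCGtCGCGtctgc

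Cbx5, chr15:103239853-103240102, minus strand: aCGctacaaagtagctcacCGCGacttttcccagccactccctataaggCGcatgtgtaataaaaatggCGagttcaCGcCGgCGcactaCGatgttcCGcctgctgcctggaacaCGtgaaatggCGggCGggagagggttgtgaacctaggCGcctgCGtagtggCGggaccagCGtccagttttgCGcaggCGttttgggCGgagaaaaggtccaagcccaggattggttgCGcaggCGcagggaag

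Zfp57, chr17:37000913-37001162, plus strand: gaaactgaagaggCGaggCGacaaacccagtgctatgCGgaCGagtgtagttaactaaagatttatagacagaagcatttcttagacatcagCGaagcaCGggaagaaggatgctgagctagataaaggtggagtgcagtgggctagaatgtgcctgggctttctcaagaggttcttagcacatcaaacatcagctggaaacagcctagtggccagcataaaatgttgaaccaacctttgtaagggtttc

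The Cbx1 window held 16 CpG and the Cbx5 window 22, while the Zfp57 window held 6, the median over the 32851 promoter windows in the table. More CpG than these were present in 23.5%, 13.3% and 46.3% of all windows, respectively. Among the other members, Cbx3 and Daxx had the most CpG in this window (29 each) and Atrx had as few as Zfp57 (6). No methylation was measured at these promoters here.

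In the replicate libraries, the mean signal of Dnmt1 was 336 ± 24.1 for WT and 75.5 ± 2.02 for Dnmt1-/- (SD, 3 libraries each), in the direction the labels give. These values are a normalized signal, in which the reads of a gene were divided by a scaled library size. The libraries held between 26846275 and 37112247 reads on genes, and replicates of a group differed by more than counting error (chi-square per degree of freedom over genes between 2.83 and 9.89). The 6 ES cell markers with a row summed to between 3207 and 3312 in WT and between 3022 and 3120 in Dnmt1-/- cells. Markers of other cells also moved with genotype. The sum of 7 fibroblast markers, led by the collagen genes, was 1072 to 1540 in WT and 251 to 281 in Dnmt1-/- cells. The sum of 6 primitive endoderm markers was 119 to 121 in WT and 176 to 185 in Dnmt1-/- cells, and that of 6 markers of the 2-cell-like state 381 to 408 and 147 to 171. All markers had a signal above 0 in the group means, with Lum and Tcstv1 below 1 in both groups. The part of these cells in the differences between genotypes was not tested, and in bulk RNA fewer cells of a type and less RNA per cell cannot be told apart.

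Of the 10 genes, 8 were higher and 1 was lower in Dnmt1-/- than in WT cells, and 1, Daxx, did not pass the test (limma on log2(signal + 0.5), Benjamini-Hochberg adjusted p under 0.05 over 17297 genes). Among all genes tested 35.8% were higher and 35.4% lower (71.2% in either direction), so a call in itself is common in this comparison. All differences of the members were modest: none reached 2-fold, which 13.1% of all genes did. The median log2 fold change of the 10 genes was 0.29, against 0.01 for all genes tested.

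**Figure D1:**
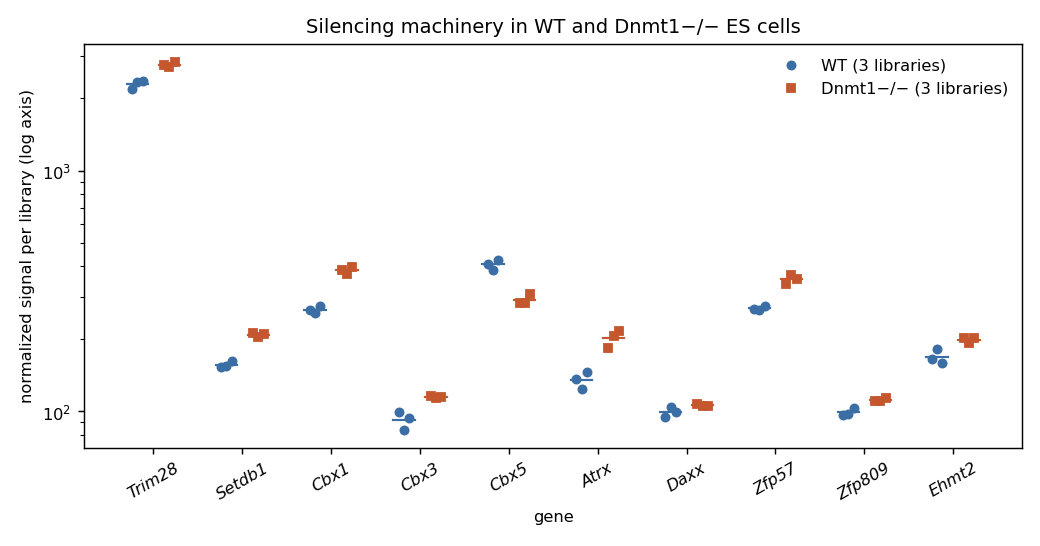
Normalized signal (log axis) of each gene in the 3 WT (circles) and 3 Dnmt1-/- (squares) libraries, with horizontal lines at the group means. The Dnmt1-/- libraries lie above the WT libraries for every gene except Cbx5, where they lie below, and Trim28 stands at 2190.0 or more in every library.

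Trim28 (ENSMUSG00000005566, chr7:12999114-13031035, GRCm38) had a signal of 2190.0, 2335 and 2364 in the WT libraries and of 2749.6, 2683 and 2817 in the Dnmt1-/- libraries. The groups did not overlap, as was the case for 37.1% of all genes tested in this direction, 36.2% in the other and 73.3% in either. The mean rose from 2296 ± 93.2 to 2749.8 ± 67.4 (SD, n = 3 each), a log2 fold change of 0.26 ± 0.06 (SE, adjusted p = 9.89e-04) or 19.8%. Per kilobase of exon, Trim28 was at 552 ± 22.4 in WT, and 0.237% of 14767 protein-coding genes were above it.

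Setdb1 (ENSMUSG00000015697, chr3:95323525-95357202), whose product is the enzyme that TRIM28 recruits to trimethylate H3K9, was at 153, 155 and 162 in WT and at 212, 204 and 209.5 in Dnmt1-/- cells. All Dnmt1-/- libraries were above all WT libraries. The log2 fold change was 0.41 ± 0.05 (SE, adjusted p = 3.70e-08), or 33.2%. Setdb1 overlaps Cers2 on the opposite strand, which moved the other way (log2 fold change −0.21, adjusted p = 0.0017), and the sources give different library kits, one of them without strand. Ehmt2 (ENSMUSG00000013787, chr17:34898469-34914052) was at 165, 182 and 159 in WT and at 202, 193 and 201 in Dnmt1-/- cells. The groups were apart. Its log2 fold change was 0.24 ± 0.05 (SE, adjusted p = 2.81e-04).

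The HP1 proteins, which read H3K9 methylation, are encoded by Cbx5 (HP1α), Cbx1 (HP1β) and Cbx3 (HP1γ), and their RNAs diverged. Cbx1 (ENSMUSG00000018666, chr11:96789127-96808640) was at 264, 257 and 273 in WT and at 386, 372 and 398 in Dnmt1-/- cells. It rose by 0.54 ± 0.05 (SE, adjusted p = 5.82e-10) on the log2 scale, but the median of the 1198 protein-coding genes tested on chromosome 11 was itself higher by 0.38, which leaves 0.16 for Cbx1 relative to its chromosome. Cbx5 (ENSMUSG00000009575, chr15:103191544-103239816) was at 409.8, 387 and 426 in WT and at 282, 283 and 308 in Dnmt1-/- cells. It was the only member that fell: its mean went from 408 ± 19.5 to 291 ± 14.8 (SD, n = 3 each), a log2 fold change of −0.49 ± 0.05 (SE, adjusted p = 1.27e-08), while the median gene of chromosome 15 was at 0.01. Cbx3 (ENSMUSG00000029836, chr6:51470360-51483704) was at 99.4, 84.1 and 93.9 in WT and at 116, 114 and 114 in Dnmt1-/- cells. Its log2 fold change was 0.31 ± 0.06 (SE, adjusted p = 2.17e-05). Reads of Cbx3 can be shared with its processed pseudogenes, of which Cbx3-ps6 had 54.5 ± 2.43 in WT and 65.0 ± 2.84 in Dnmt1-/- cells (SD, n = 3 each), so its level is uncertain.

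As a share of the summed HP1 signal per kilobase, Cbx1 made up 49.8%, 51.4% and 50.4% in the WT libraries and 64.1%, 63.3% and 63.6% in the Dnmt1-/- libraries. Cbx5 made up 36.8%, 36.7% and 37.3% in WT and 22.2%, 22.9% and 23.4% in Dnmt1-/- cells. Both shares were thus apart between the groups, by 13.2 percentage points upward for Cbx1 and by −14.1 percentage points for Cbx5 (exact two-sided permutation test, p = 0.1 each, the smallest that 3 against 3 libraries can give). Cbx3 had 12.6% ± 0.739 in WT and 13.5% ± 0.439 in Dnmt1-/- cells (SD, n = 3 each), and its libraries overlapped (difference 0.945 percentage points, exact permutation p = 0.2). Without division by length the Cbx3 share differed by 2.42 percentage points and its libraries no longer overlapped (exact permutation p = 0.1).

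**Figure D2:**
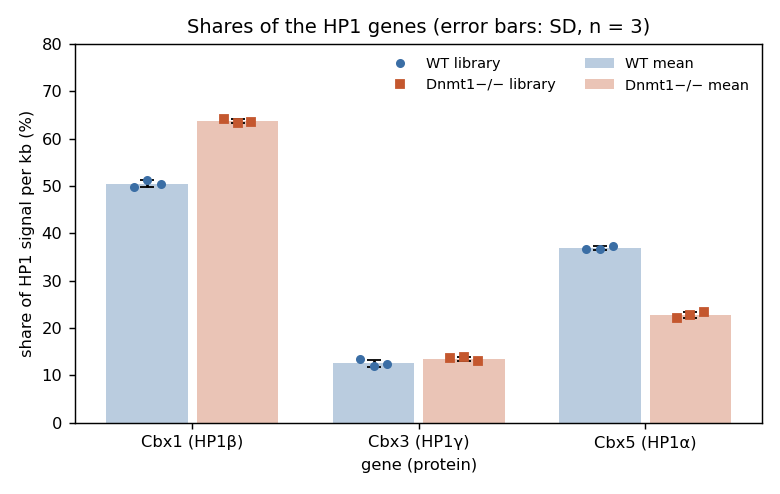
Share of each HP1 gene in the summed signal per kilobase of the HP1 genes (percent), with bars at the mean of 3 libraries, error bars of 1 SD and a point for each library. Cbx1 went from 50.5% in WT to 63.7% in Dnmt1-/- cells and Cbx5 from 36.9% to 22.8%, with no overlap of libraries, while the Cbx3 libraries overlapped. The shares are not adjusted for the shift of chromosome 11, which holds Cbx1.

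Atrx (ENSMUSG00000031229, chrX:105797615-105929403), which encodes the remodeller that loads H3.3, was at 136, 124 and 146 in WT and at 183, 205 and 216 in Dnmt1-/- cells. Its log2 fold change was 0.57 ± 0.06 (SE, adjusted p = 1.01e-08), or 48.4%, within 1 SE of that of Cbx1, and the median gene of the X chromosome was at 0.03. With the trend of GC content and transcript length removed from each library, its log2 fold change was 0.77. Daxx (ENSMUSG00000002307, chr17:33909414-33915590), the H3.3 chaperone that works with ATRX, was at 95.04, 104 and 99.2 in WT and at 107, 106 and 105 in Dnmt1-/- cells. The Dnmt1-/- libraries lay just above the WT libraries, with a log2 fold change of 0.09 and a 95% interval of −0.01 to 0.20 (adjusted p = 0.095). Without WT replicate 2, the highest WT library, the value was 0.13 (adjusted p = 0.028), past the threshold.

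Zfp57 (ENSMUSG00000036036, chr17:37001163-37010635), the KRAB zinc finger gene that maintains imprints, was at 266, 264 and 274 in WT and at 339.6, 369 and 353 in Dnmt1-/- cells. Its log2 fold change was 0.40 ± 0.05 (SE, adjusted p = 1.04e-07), or 32.0%. Daxx and Ehmt2 lie on the same chromosome 17, whose median gene did not shift (log2 0.004). Zfp809 (ENSMUSG00000057982, chr9:22225714-22243354), whose product initiates silencing of murine leukemia virus-like proviruses, was at 96.6, 97.8 and 103 in WT and at 111, 111 and 114 in Dnmt1-/- cells. The groups were apart, but the difference was small, at 0.17 ± 0.05 (SE, adjusted p = 0.0031) on the log2 scale, and the median gene of chromosome 9 was higher by 0.09.

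**Figure D3:**
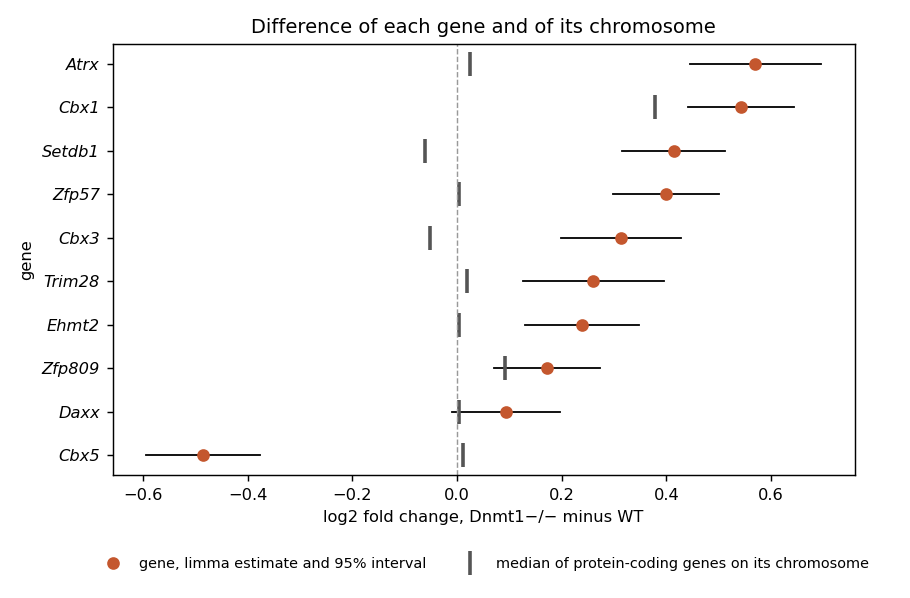
Log2 fold change of each gene between Dnmt1-/- and WT cells (points, limma estimate with its 95% interval) beside the median log2 fold change of the protein-coding genes of its chromosome (vertical ticks). Atrx, Cbx1, Setdb1 and Zfp57 have the highest values, from 0.57 to 0.40, Cbx5 alone is below 0, and the chromosome median is as high as 0.38 for Cbx1 only.

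Per kilobase of exon, the order of the RNA levels in WT cells was Trim28, Zfp57 (70.8 ± 1.39), Cbx1 (61.9 ± 1.86), Cbx5 (45.3 ± 2.16), Zfp809 (33.5 ± 1.18), Daxx (31.6 ± 1.45), Ehmt2 (30.7 ± 2.16), Setdb1 (22.8 ± 0.735), Cbx3 (15.4 ± 1.29) and Atrx (6.23 ± 0.498; SD, n = 3). Trim28 exceeded Zfp57, the next gene, 7.80-fold and Setdb1 24.2-fold. The libraries of Zfp809 and Daxx overlapped, as did those of Daxx and Ehmt2, so the order within these pairs is not resolved. In Dnmt1-/- cells the order was the same at both ends, but Cbx5 (32.3 ± 1.64) came seventh, below Zfp809 (37.8 ± 0.652) and Ehmt2 (36.2 ± 0.979) and overlapping with Daxx (33.7 ± 0.339). Zfp57 (93.5 ± 3.86) and Cbx1 (90.2 ± 3.07) overlapped in Dnmt1-/- cells, where they had been apart in WT.

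Other genes of the pathway were counted in 7 lists that hold 47 genes. Of the 44 that could be tested, 25 were higher, 12 were lower and 7 did not pass, with a median log2 fold change of 0.22. Among all genes tested 35.8% were higher and 35.4% lower. The counts for each list below stand beside these same shares, and no list was tested as a set. No gene of these lists reached 2-fold on the log2(signal + 0.5) scale, which understates the change of low genes. Asf1a and Zfp708 had no row, and Suv39h1 (0.306 ± 0.134 in WT and 0.300 ± 0.0591 in Dnmt1-/- cells, SD, n = 3 each) was left out by the filter on low values, although it had between 247 and 764 counts in each library of the separate table of single libraries, a difference whose cause was not tested.

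Among the H3K9 methyltransferases and their cofactors, 3 were higher, 2 lower and 1 did not pass. Ehmt1, whose product (GLP) pairs with EHMT2, had the highest value, at 66.0 ± 2.95 in WT and 97.3 ± 1.84 in Dnmt1-/- cells (SD, n = 3 each; log2 fold change 0.56, adjusted p = 7.3e-10). Atf7ip, whose product stabilizes SETDB1 in the nucleus, had the lowest, from 157 ± 5.69 to 127 ± 5.59 (log2 fold change −0.30, adjusted p = 8.6e-06), opposite in direction to Setdb1 itself. Of the 4 genes of the HUSH complex and Morc2a, which silence repeats with SETDB1, 3 were higher and 1 lower. Morc2a rose most (log2 fold change 0.68, adjusted p = 7.6e-12), but it lies on chromosome 11 with its median of 0.38, and Fam208a, which encodes the HUSH subunit TASOR, was lower (−0.17, adjusted p = 0.0092), although its groups overlapped. No gene of this list was called lower without WT replicate 3 or with the trend of GC content and length removed.

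Genes of H3.3 and its chaperones split, with 4 higher and 3 lower. Cabin1, a subunit of the HIRA complex, was at 62.8 ± 3.65 in WT and 108 ± 3.93 in Dnmt1-/- cells (SD, n = 3 each), a log2 fold change of 0.78 (adjusted p = 3.3e-12). Of the genes that encode H3.3, H3f3a fell from 110.2 ± 5.65 to 78.2 ± 4.27 (SD, n = 3 each; log2 fold change −0.49, adjusted p = 1.7e-08), while the more abundant H3f3b rose from 1001 ± 12.6 to 1555 ± 43.1 (SD, n = 3 each; log2 fold change 0.64, adjusted p = 3.4e-10), beside a median of 0.38 for its chromosome 11. Of the 9 SUMO, chromatin assembly and remodelling cofactors of retrovirus silencing, 7 were higher, none was lower and 2 did not pass, and with the trend of GC content and length removed 1 was called lower. Sumo2, among those called higher (log2 fold change 0.24), also lies on chromosome 11 and was below its median of 0.38. Chaf1b, a subunit of the histone chaperone CAF-1, had the highest value (log2 fold change 0.47, adjusted p = 9.7e-08).

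Of the TIF1 relatives of TRIM28, Trim66 rose from a low level (2.22 ± 0.287 to 4.34 ± 0.249, SD, n = 3 each; log2 fold change 0.83, adjusted p = 1.4e-06) and Trim24 fell (−0.46, adjusted p = 2.9e-08), with 2 of 3 higher and 1 lower. Among 5 other KRAB zinc finger genes of retroelements and imprints, 1 was higher, 2 were lower and 2 did not pass. The count of lower genes was 4 without WT replicate 2, by edgeR, and with TMM or DESeq2 scaling. Zfp568, whose product represses an imprinted promoter, was higher (0.31, adjusted p = 1.4e-05), and Zfp819 fell from 18.6, 18.4 and 17.2 in the WT libraries to 10.4, 8.97 and 8.44 in the Dnmt1-/- libraries (log2 fold change −0.93, adjusted p = 7.4e-10). The 10 H3K9 demethylase genes were split between 5 higher, 3 lower and 2 that did not pass, from Kdm7a (0.55, adjusted p = 4.3e-05) to Kdm4d (−0.80, adjusted p = 1.3e-04), whose signal was under 1 in both groups. On the recovered reads the log2 fold change of Kdm4d was −1.85 by edgeR (adjusted p = 2.2e-04) and −1.88 by DESeq2 (adjusted p = 0.0011).

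**Figure D4:**
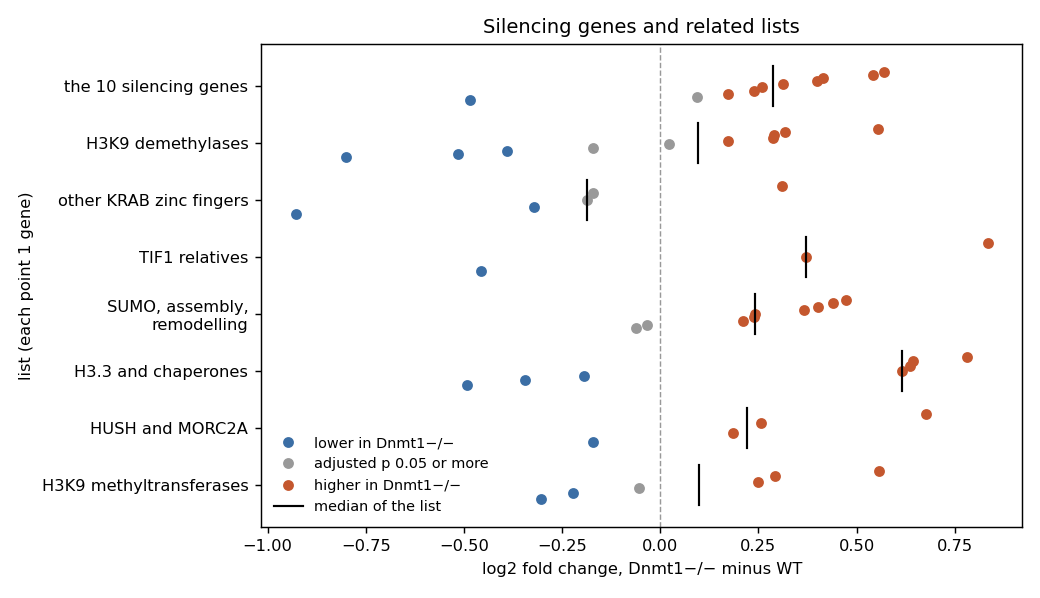
Log2 fold change between Dnmt1-/- and WT cells of the genes of each list (1 point a gene, coloured by the limma call) and of the 10 silencing genes, with a vertical line at the median of each. The 10 genes have a median of 0.29 and 1 gene below 0, and the list medians run from −0.19 for the KRAB zinc finger genes to 0.61 for H3.3 and its chaperones.

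The single libraries had between 18693531 and 25097983 counts on genes. Levels are given as cpm, the counts of a gene relative to the TMM-scaled total of its library. The libraries have no replicates, so no test is given, and 95% intervals (Wilson method) cover counting error only. Each OGA construct is represented by 1 library, so the activity of OGA and the origin of the cells cannot be told apart. From inactive to active OGA, the median log2 ratio was 0.38 on chromosome 1, −0.49 on chromosome 8 and −0.47 on chromosome 11. It was 0.11 on chromosome 17, which holds Zfp57. Between dCas9-OGA and dCas9-OGA-D242A cells, Zfp57 was the only member that differed at least 2-fold, where 4.68% of 12722 genes were that much higher and 7.39% that much lower. Zfp57 was at 416 cpm (10491 counts) with active and at 111 cpm (2782 counts) with inactive OGA, a log2 ratio of 1.90 (interval 1.84 to 1.96). The WT and Dnmt1-/- libraries of the same table had 354 and 281 cpm, so the dCas9-OGA-D242A library was the one that stood apart, and its log2 ratio to the WT library was −1.66.

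Trim28, Setdb1 and Ehmt2 had nearly the same level with active and with inactive OGA. Trim28 was at 2253 and 2330 cpm, Setdb1 at 139.8 and 139.6 cpm and Ehmt2 at 309 and 288 cpm. Their log2 ratios were −0.05 (interval −0.06 to −0.03), 0.002 (−0.07 to 0.07) and 0.10 (0.06 to 0.15), of which the first turned to 0.02 with DESeq2 size factors. The genes of the ATRX and DAXX proteins, which deposit H3.3, moved in opposite directions, with Atrx at 191 and 114 cpm (log2 ratio 0.73, interval 0.67 to 0.80) and Daxx at 84.3 and 112 cpm (−0.41, interval −0.49 to −0.33). Of the HP1 genes, Cbx5 was at 470.3 and 304 cpm (log2 ratio 0.63, interval 0.59 to 0.67) and Cbx1 at 173 and 258 cpm (−0.58, interval −0.63 to −0.52), beside a median of −0.47 for the genes of chromosome 11. Zfp809 had 283 and 210 counts (log2 ratio 0.40, interval 0.16 to 0.67). Cbx3 had 63 and 66 counts, and at that depth a difference was not detectable (log2 ratio −0.07, interval −0.58 to 0.41).

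Of 40 genes of the pathway lists with at least 100 counts in these libraries, Kdm4b was at least 2-fold higher (105 and 50.9 cpm, log2 ratio 1.03) and Zfp819 at least 2-fold lower (3.05 and 8.77 cpm, −1.38) with active OGA. Among all 12722 genes compared, 4.68% were that much higher and 7.39% that much lower, so such differences were no more frequent in the lists. The sum of the ES cell markers was 3965 cpm with active and 2980.2 cpm with inactive OGA, that of the fibroblast markers 40.2 and 61.0 cpm, and that of the primitive endoderm markers 33.7 and 18.9 cpm. The lists did not move as a whole. Zfp42 (413 and 492 cpm), Col3a1 (4.08 and 3.24 cpm) and Dab2 (9.40 and 9.97 cpm) went against the sum of their list. Sox7 (9.51 and 0.160 cpm) had the largest difference of the primitive endoderm markers. The part of these differences in the values of the silencing genes was not tested.

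**Figure D5:**
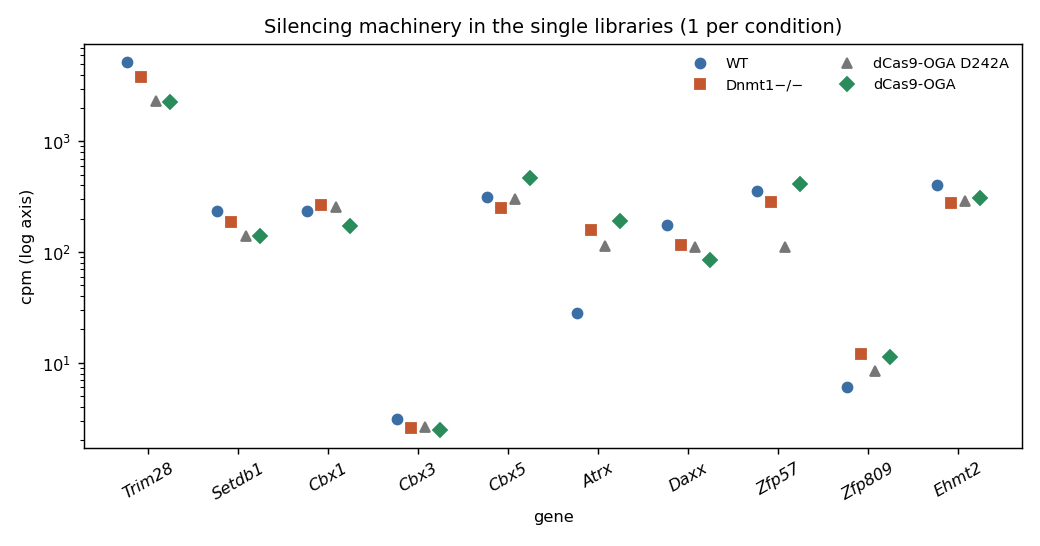
Library-scaled counts (cpm, log axis) of each gene in the single libraries of WT, Dnmt1-/-, dCas9-OGA-D242A and dCas9-OGA cells (1 library each, no error bar). The dCas9-OGA-D242A library is low for Zfp57 (111 cpm against 281 to 416), and the WT library is low for Atrx (28.1 cpm against 114 to 191) and high for Trim28 (5179 cpm against 2253 to 3811).

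The single WT library stood apart from the other libraries of its table for several members. Its Atrx level was 28.1 cpm (690 counts), against 160.0 cpm in Dnmt1-/-, 114 in dCas9-OGA-D242A and 191 in dCas9-OGA cells. Its Trim28 level was the highest, at 5179 cpm against 3811, 2330 and 2253. Against this library Atrx was higher by 2.49 in Dnmt1-/- cells on the log2 scale, and by 1.65 after the trend of GC content and length was removed, where 10.7% of 12593 genes were higher by 2-fold or more and 6.81% lower by that much. In dCas9-OGA cells Atrx was 2-fold or more higher and Trim28 and Daxx 2-fold or more lower than in this library (13.3% and 10.4% of 12746 genes). With that trend removed, neither Trim28 (log2 ratio −0.81) nor Daxx (−0.73) was 2-fold lower, and with DESeq2 size factors Trim28 (−1.10) was but Daxx (−0.96) was not. In dCas9-OGA-D242A cells Atrx was 2-fold or more higher and Trim28 and Zfp57 2-fold or more lower (12.1% and 8.62% of 12933 genes), of which Trim28 (−0.87) was no longer 2-fold lower with the trend removed. Of the markers of other cells, the 2-cell-like list summed to 15.6 cpm in this library against 0.278 to 1.041 in the others and the primitive endoderm list to 48.6 cpm against 16.6 to 33.7, while the fibroblast list, at 49.4 cpm, lay within the 31.1 to 61.0 cpm of the others. Their part in the values of the silencing genes was not tested. These comparisons share the 1 WT library. The levels of Cbx3 and Zfp809 also differed between the tables: they were 92.5 and 99.2 in WT on the normalized signal, but 3.09 and 6.06 cpm in the single WT library, where Cbx3-ps6 had 18.95 cpm. The cause was not tested, and since the tables were normalized separately no fold is given between them.

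Retrotransposons that this machinery is known to silence were read in the same single libraries. MMERVK10C-int, a TRIM28 and SETDB1 target, was at 32.2 cpm in WT, 77.6 in Dnmt1-/-, 38.0 in dCas9-OGA-D242A and 51.1 in dCas9-OGA cells. It was thus highest in the Dnmt1-/- library (log2 ratio to WT 1.26, interval 1.14 to 1.39), and its log2 ratio between the OGA libraries was 0.42 (interval 0.31 to 0.55). MMVL30-int, of the VL30 elements that ZFP809 silences, was at 14.8, 18.6, 15.3 and 18.3 cpm in the same order. Its log2 ratio between the OGA libraries was 0.25 (interval 0.06 to 0.46). RLTR6_Mm, the LTR of these elements, had 237 counts with active and 121 with inactive OGA (log2 ratio 0.89, interval 0.64 to 1.27). ETnERV2-int had 173 and 210 counts (−0.28, interval −0.58 to −0.004). IAPEz-int, the internal part of the IAP elements whose LTRs the guides target, and MMETn-int and ETnERV-int were higher with active than with inactive OGA, by 1.95, 1.61 and 1.54 on the log2 scale. When scaled to the total of repeat counts instead of gene counts, all these ratios between the OGA libraries were lower: −0.10 for MMERVK10C-int, −0.27 for MMVL30-int, 0.42 for RLTR6_Mm, −0.82 for ETnERV2-int, 1.43 for IAPEz-int, 1.08 for MMETn-int and 1.01 for ETnERV-int. In the Dnmt1-/- library IAPEz-int and ETnERV-int are listed with an identical count of 12152, so the Dnmt1-/- values of both are uncertain.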

How the data were processed

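RNA-seq libraries of ES cells were used; ChIP-seq was not analysed here. Reads had been mapped by the authors to mm10. For genes the study names HISAT2, with counts on Ensembl v87 genes by featureCounts 1.5.0. The sources also name TopHat2 2.0.11. Which mapper and gene set served which libraries was not established here. The replicate libraries list 26797 genes each and the single libraries 49671. For repeats the authors mapped with bowtie2 2.2.2, left out reads on rRNA and mRNA and counted on RepeatMasker annotations. For the 6 replicate libraries the deposited values are a signal: each count over a scaled size of its library. Since the headers did not describe their columns, values were read by column position. Whole reads were recovered for 100% of values (tolerance 1e-06 reads). For the 4 single libraries the authors deposited counts per gene and per RepeatMasker subfamily.

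The replicate signal was fitted with limma 3.58.1 (trend) on log2(signal + 0.5), with genes filtered by edgeR's filterByExpr and Benjamini-Hochberg adjustment at 0.05. The study's DESeq2 (1.42.0 here) and edgeR 4.0.16 (quasi-likelihood) were alternatives on recovered reads. On simulated data for this comparison (17297 genes, 200 changed), limma recovered 197 with 5 false calls. The simulated log2 fold changes were 0.5 or more in either direction, larger than those of most called members. Far fewer genes were changed than the 12324 called in the data, so the simulation does not bear on calls of small differences. Same-numbered replicates did not deviate together (r = 0.07, −0.02 and 0.07), so the fit has no block. TMM factors (edgeR, genes with at least 100 counts) scaled the counts of the single libraries, which were compared as log2(cpm + 0.5) without a test. Genes were placed with GENCODE vM21 on GRCm38. Alternatives covered tests, scaling, filters, pseudocounts, the block, left-out libraries, chromosome shifts and, added after seeing the data, GC content with length, median shifts, Cbx3 pseudogenes and repeat totals. R 4.3.3 and Python 3.11.15 were used.

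The members and lists were chosen with earlier results of these data known. Named genes were the members, Dnmt1, the highest and lowest called gene of each list, list genes that differed at least 2-fold, pseudogenes of members and 7 repeat subfamilies. Cers2, Suv39h1 and H3f3b were named after their values were seen.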

Additional observations from a re-analysis of the deposited data

Results flagged for a closer look

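For 6 genes the single Dnmt1-/- library differed from the single WT library in the direction opposite to the replicates, where every Dnmt1-/- library was above every WT library. The log2 ratio of the single libraries was −0.44 for Trim28, −0.33 for Setdb1, −0.33 for Zfp57, −0.55 for Ehmt2, −0.61 for Daxx, which was not called in the replicates, and −0.23 for Cbx3, whose counting interval (−0.79 to 0.24) includes 0. The median gene was at −0.06 in this comparison. With the trend of GC content and transcript length removed, the values were −0.10 for Trim28, −0.42 for Setdb1, −0.57 for Zfp57, −0.20 for Ehmt2, −0.33 for Daxx and −1.08 for Cbx3. The difference between the replicate and the single libraries was not tested, since the single libraries have no replicates and the tables were normalized separately.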

How the results depend on the processing

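The calls of 9 members kept their direction and their side of the threshold in every alternative fit run. Daxx passed without WT replicate 2 (0.13, adjusted p = 0.028) and in no other fit (adjusted p up to 0.32). With the replicate number as a block, 12556 genes were called against 12324, 8 members were higher and 1 lower, and not every library correlated best with its own number. Counts of called list genes ranged from 24 to 25 higher and from 11 to 14 lower over the left-out libraries, with 15 lower by edgeR and under TMM or DESeq2 scaling, and counts of higher members from 8 to 9. DESeq2 called 11404 genes and edgeR 12252.

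The shift of the HP1 shares was 14.1 points for Cbx1, 2.42 for Cbx3 and −16.5 for Cbx5 without division by length, and 11.9 for Cbx1 and −12.9 for Cbx5 with the pseudogenes added to Cbx3. Over left-out libraries it was 12.8 to 13.6 for Cbx1, 0.646 to 1.36 for Cbx3 and −14.4 to −13.8 for Cbx5.

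In the single libraries a 1.5-fold threshold gave 3 members higher with active than with inactive OGA (12.6% of all genes), 2 higher (23.3%) and 3 lower (22.9%) in dCas9-OGA than in WT, 4 lower (20.4%) in dCas9-OGA-D242A than in WT, and 2 higher (19.9%) and 1 lower (17.6%) in Dnmt1-/- than in WT. With GC content and length removed, the members at least 2-fold lower than in WT were 0 for dCas9-OGA (10.5% of all genes), Zfp57 alone (1, 8.85%) for dCas9-OGA-D242A and Cbx3 alone (1, 7.20%) for Dnmt1-/-. DESeq2 size factors gave 1 lower in dCas9-OGA than in WT (8.61%). Cbx5 in dCas9-OGA against WT was at 0.58, and at −0.19 with GC content and length removed. The cause of these shifts was not tested. Cbx3 and Zfp809 had 48 to 76 and 149 to 283 counts a library, which limits their ratios.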
